A study of Bos taurus with 16 samples.

Results

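Kidney RNA of cattle (Bos taurus) that had been copied by 2 rounds of linear amplification was compared with a common reference RNA that had also been amplified for 2 rounds. The comparison rests on the 4 arrays labelled round 2, of 16 arrays in the series. They hold 2 kidney RNAs, called replicates 1 and K, each hybridised once with kidney in the dye Cy3 and once with kidney in Cy5 (a dye swap). The other 12 arrays hold kidney RNA that was unamplified (round 0) or amplified 1 or 3 times, against the same amplified reference. Only at round 2 had the 2 channels of an array been amplified equally often. The labels name neither the tissue that gave the reference RNA nor the age, sex or treatment of the animals. They do not say whether replicates 1 and K came from separate animals, so the p-values measure the spread between these RNAs, which may be technical.

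Linear amplification primes cDNA synthesis on the poly(A) tail with a primer that carries a T7 promoter, and T7 RNA polymerase then transcribes many antisense copies from each cDNA. The copies keep the 3′ end of a transcript, and each further round starts from shorter templates. The kidney itself is mostly tubule epithelium: proximal tubules reclaim filtered solutes through a brush border rich in peptidases and run on fatty acids, and distal segments and collecting ducts adjust salt, water, acid and calcium.

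Values below are log2 ratios with kidney over the reference. Each was centred on the median of its array and averaged over duplicate spots and over the dye swap, which gave 1 value per RNA (n = 2). Errors are SDs between these 2 RNAs unless called SE. A clone is 1 cDNA spotted in duplicate, and a clone was called where its mean differed from 0 in limma's moderated test at a Benjamini-Hochberg adjusted p under 0.05. The direction of the deposited ratio is not stated. It was taken as Cy5 over Cy3 because the kidney gene lists then lay above the reference on all 4 arrays, with medians of 1.06 to 1.53. That the kidney lists lie above 0 is therefore a choice, and if the ratio ran the other way every sign below would turn.

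Between 85.3% and 95.0% of the 16896 spots on the 4 arrays had a ratio, and duplicate spots correlated at 0.496 to 0.801 (Pearson r). The lowest of these values, in both respects, came from the array of replicate 1 with kidney in Cy5. At round 2, 1940 of 5537 tested clones were called, which is 35.0%. Of these, 933 (16.9%) lay above the reference and 1007 (18.2%) below it. Without centring, the median of all tested clones moved from 0.04 to 0.59, and the calls became 1489 above and 239 below. Without the replicate 1 Cy5 array, 2095 clones of 5477 were called. The count depended on both RNAs: with replicate 1 left out it was 1160, and with replicate K left out 865, where the lone RNA was taken to vary like those of the other rounds. The fit estimates the spread from all 4 rounds, and when it used the 2 round 2 RNAs alone 1280 clones were called. Among the called clones, 613 lay more than 1 above the reference on the log2 scale and 52 more than 3, while 533 lay more than 1 below it and 27 more than 3.

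The genes farthest from the reference were taken among called clones whose 4 arrays lay on 1 side of it, 12 above and 12 below. ENPEP, the aminopeptidase A of the brush border, lay farthest above. Its 4 arrays read 5.0 and 5.81 for replicate 1 (kidney in Cy3, then Cy5) and 5.58 and 5.10 for replicate K, a mean of 5.37 ± 0.05, or 41.4-fold (adjusted p = 8.69e-05). The difference between dyes within an RNA was larger than that between the RNAs. AQP1, an aquaporin of proximal tubules and thin descending limbs, followed at 4.19, 4.86, 4.60 and 4.80, with a mean of 4.61 ± 0.13. S100G, the small intracellular calcium carrier calbindin-D9k, read 4.17, 5.28, 4.92 and 3.83, and averaged 4.55 ± 0.24. A second S100G clone lay at 2.87 ± 0.37, so that both clones of this gene were called on the same side at different heights.

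Other tubule genes stood in the same range. PDZK1IP1, a small membrane protein of the proximal tubule, averaged 4.38 ± 0.38, with replicate 1 in Cy5 at 5.21 and the other 3 arrays between 4.07 and 4.17. SLC7A7, the light chain of the basolateral transporter for cationic amino acids, lay at 4.10 ± 0.03. DPP4, the brush border dipeptidyl peptidase, read 4.47, 3.12, 3.88 and 4.66, a mean of 4.03 ± 0.33. GATA3, a transcription factor of the ureteric bud and collecting duct, averaged 4.26 ± 0.44 on 1 clone, whereas its second clone lay at -0.70 ± 2.20 and was not called. The remaining genes among the 12 farthest above were MGP (4.36 ± 0.29), a matrix protein that inhibits calcification, LOC338050 (4.12 ± 0.03), AHCYL2 (3.93 ± 0.30), ABCA1 (3.89 ± 0.16), the cholesterol exporter, and TEK (3.87 ± 0.51), the endothelial angiopoietin receptor. All 3 clones of AHCYL2, a relative of S-adenosylhomocysteine hydrolase, were called above the reference, at 3.93, 3.50 and 2.92. Of 4 ABCA1 clones only the one above was called; the others lay at 1.43, -0.21 and -0.34.

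Of the genes below the reference, TCAM1 lay farthest from it; it encodes a cell adhesion molecule named for the testis. Its arrays read -5.25, -6.36, -6.32 and -5.28, and both RNAs averaged -5.80. PCLAF, a factor that binds the replication clamp PCNA, lay at -4.82, -4.48, -4.62 and -4.60, a mean of -4.63 ± 0.03. ANKRD1, a nuclear and sarcomeric ankyrin repeat protein, read -4.59, -3.87, -4.69 and -4.15, a mean of -4.32 ± 0.14. All 12 arrays' values for these 3 genes lay under -3.8. BCAT1, the cytosolic branched-chain aminotransferase, averaged -4.31 ± 0.18. CAV1, the coat protein of caveolae, lay at -3.75 ± 0.52, and VIM, the intermediate filament protein vimentin, at -3.65 ± 0.51, with a second VIM clone at -3.52. LGALS3, a galactoside-binding lectin, gave -3.70 ± 0.11 and, on its second clone, -3.19. The others of the 12 farthest below were ME1 (-3.64 ± 0.47), the cytosolic malic enzyme, NT5E (-3.61 ± 0.30), the ectonucleotidase CD73, SLC1A3 (-3.60 ± 0.12), a glutamate transporter, SPC24 (-3.44 ± 0.44) of the kinetochore, and TIMP1 (-3.44 ± 0.24), an inhibitor of metalloproteinases. VIM differed by dye in both RNAs, reading -4.63 and -4.03 with kidney in Cy3 against -3.39 and -2.55 in Cy5.

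**Figure D1:**
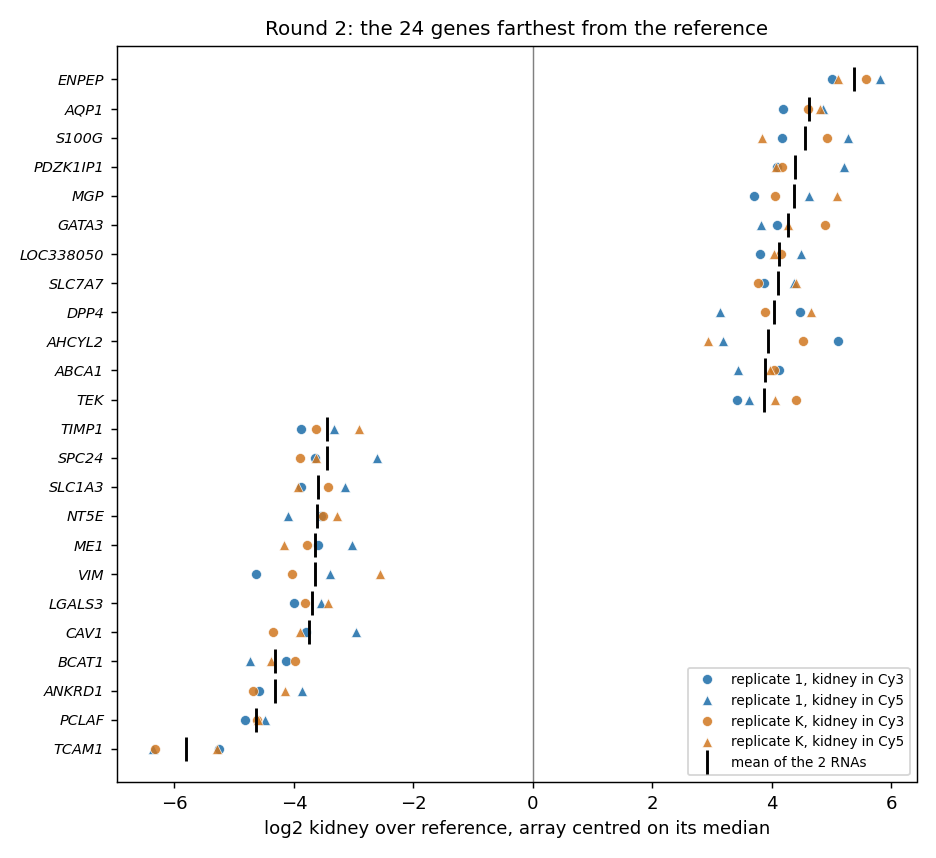
Log2 kidney over reference on each of the 4 round 2 arrays (x axis) for the 12 genes farthest above and the 12 farthest below the reference, chosen among called clones with all 4 arrays on 1 side of 0. Circles are arrays with kidney in Cy3 and triangles arrays with kidney in Cy5, blue for replicate 1 and orange for replicate K, and black ticks are the means of the 2 RNAs. Means run from ENPEP at 5.37 to TCAM1 at -5.80.

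Over the 6 lists of kidney genes, 57 clones were tested, with a median of 1.07 against 0.04 for all tested clones. Of the 57, 28 (49.1%) were called above the reference and 1 (1.8%) below, against 16.9% and 18.2% of all tested clones. These counts describe the lists that set the direction of the ratio. Proximal tubule transport had 4 of 5 clones called above, with a median of 3.52. They were AQP1, SLC7A7, PDZK1 at 3.52 ± 0.01, the scaffold that holds brush border transporters, and SLC27A2 at 3.10 ± 0.07, which takes up and activates very long fatty acids. GIPC2, at 0.46 ± 0.30, was not called. Of 9 clones for brush border enzymes 4 were called, all above: ENPEP, DPP4, ANPEP (aminopeptidase N) at 3.46 ± 0.41, and 1 clone of MME (neprilysin) at 2.00 ± 0.10. The second MME clone lay at -0.94 ± 1.70, and ACE, the angiotensin-converting enzyme, at -0.33 ± 0.64; neither was called.

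Proximal tubule metabolism had 6 of 10 clones called above (60%) and 0 below, against 16.9% and 18.2% of all tested clones. GPX3, the glutathione peroxidase that proximal tubules secrete into plasma, read 3.76, 1.75, 4.40 and 4.08, a mean of 3.50 ± 1.05 in which the replicate 1 Cy5 array stood under the other 3 and without which the mean was 4.0. AK4, a mitochondrial adenylate kinase, lay at 2.94 ± 0.43, and SORD, sorbitol dehydrogenase, at 1.48 ± 0.14. ASS1 and ASL, the enzymes that make arginine in the proximal tubule, lay at 0.55 ± 0.08 and -1.24 ± 0.90 and were not called.

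Against 16.9% above and 18.2% below of all tested clones, the distal nephron list had 11 of 23 clones (47.8%) called above and 0 below. Besides S100G they included SCNN1A at 3.28 ± 0.28 and SCNN1G at 2.82 ± 0.01, which are subunits of the epithelial sodium channel. AQP3, the basolateral water channel of the collecting duct, had 3 clones at 3.11, 3.10 and 2.77, all called. HSD11B2, the enzyme that shields the mineralocorticoid receptor from cortisol, lay at 2.87 ± 1.39, CA2, carbonic anhydrase, at 2.63 ± 0.26, and SLC4A9, an anion exchanger of intercalated cells, at 1.72 ± 0.72. CDH1, E-cadherin, had 1 clone called at 2.87 ± 0.11 and another at 0.61 ± 0.40 that was not. ATP1B1, the sodium pump's beta subunit, gave 1.23 ± 1.22 and -1.81 ± 0.02 on its 2 clones, with neither called. The channels TRPM6 (0.10 ± 0.38) and TRPV6 (-0.05 ± 0.12) also missed the threshold.

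The glomerulus list did not stand apart: of 6 clones 1 (16.7%) was called above and 1 (16.7%) below, with a median of 0.14. For all tested clones the shares were 16.9% and 18.2%. The call above was NPNT (nephronectin, a basement membrane protein) at 2.14 ± 0.93, and that below was ITGA3 at -0.96 ± 0.06. The ITGA3 call was lost with either RNA left out and the NPNT call with replicate K left out. The list median was -0.35 with kidney in Cy5 alone, 0.61 with replicate 1 left out and 0.70 without centring. SYNPO, an actin-binding protein of podocytes, lay at 0.79 ± 0.37 and was not called. The list of kidney transcription factors had GATA3 and MEIS2 (0.90 ± 0.32) called above and 2 clones not called. The arrays are bulk measurements, in which fewer cells of a type and less RNA per cell cannot be told apart.

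Fatty acid oxidation was the metabolic list with the most calls above the reference. Of its 27 clones, 18 (66.7%) were called above and 1 (3.7%) below, against 16.9% and 18.2% of all tested clones. The list median was 1.38. CPT1A, which commits fatty acids to the mitochondrion, had 2 clones at 3.14 ± 0.67 and 2.95 ± 0.17. PHYH, the peroxisomal enzyme that hydroxylates phytanoyl-CoA, lay at 3.14 ± 0.46, and HADH, a mitochondrial dehydrogenase of beta-oxidation, at 3.08 ± 0.12 with arrays of 2.79, 3.55, 2.62 and 3.38. The exception below was ACSL6, an acyl-CoA synthetase, at -0.75 ± 0.41, a call at the threshold (adjusted p = 0.0494) that was kept in 7 of 23 other settings. With replicate 1 or K left out, 14 and 12 clones of the list were called above.

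The TCA cycle list had 12 of 27 clones called above at small sizes, with a list median of 0.56. SDHA, a subunit of succinate dehydrogenase, lay at 1.32 ± 0.58, PDHA1 of pyruvate dehydrogenase at 1.09 ± 0.04, and MDH2, mitochondrial malate dehydrogenase, at 0.82 ± 0.02. These calls needed both RNAs: with replicate 1 left out 1 was called above, and with replicate K left out 0. ME1 was the 1 clone called below. Oxidative phosphorylation had 11 clones above (20.8%) and 3 below (5.7%) of 53, with a median of 0.17. Over all tested clones 16.9% were called above and 18.2% below. NDUFA10 of complex I (1.62 ± 0.46) and UQCRC1 of complex III (1.58 ± 0.48) were farthest above, and NDUFA4L2, a complex subunit paralogue known to respond to hypoxia, farthest below at -1.44 ± 0.28. Here 3 clones were called above with replicate K left out, and the median was -0.20 with kidney in Cy3 alone.

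Glycolysis lay on the other side of the reference, with 0 of 20 clones called above and 12 below, and a median of -0.67. LDHA, lactate dehydrogenase A, read -3.68, -3.44, -3.25 and -3.35, a mean of -3.43 ± 0.19. SLC2A3, the high-affinity glucose transporter GLUT3, had 2 clones called at -2.47 ± 0.07 and -2.10 ± 0.15. PGK1 lay at -1.39 ± 0.08, GAPDH at -1.13 ± 0.15 and ENO1 at -1.07 ± 0.30. Without centring the median was -0.12 and 3 clones were called below, and with replicate 1 left out 6 were. Among antioxidant enzymes, GPX3, the peroxide-degrading CAT (3.00 ± 0.28) and the mitochondrial SOD2 (1.51 ± 0.10) were farthest above, and TXN, thioredoxin, at -1.33 ± 0.49 farthest below. The detoxification list as a whole had 7 clones above (21.9%) and 6 below (18.8%) of 32, near the 16.9% and 18.2% of all tested clones, and its calls below fell to 2 and 1 with replicate 1 or K left out and 0 without centring.

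Genes of the cell cycle lay below the reference at round 2. Of 32 clones, 21 (65.6%) were called below and 1 (3.1%) above, against 18.2% and 16.9% of all tested clones. The list median was -1.57. Without centring 17 clones remained below, and the median was -1.01. After PCLAF came TPX2, a spindle assembly factor, at -2.99 ± 0.06 and KPNA2, an importin alpha, at -2.90 ± 0.08, each with all 4 arrays under -2.8. The clamp protein PCNA lay at -2.17 ± 0.51, the helicase subunits MCM2 and MCM4 at -1.79 ± 0.23 and -1.93, and the spindle checkpoint activator CDC20 at -1.86 ± 0.14. The cyclin kinases CDK2, CDK4 and CDK6 had 5 clones between -0.41 and -0.04, with none called. The 1 clone above was NCAPD2, a condensin subunit, whose arrays read 2.99 and 1.93 with kidney in Cy3 against -0.29 and 0.44 in Cy5.

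Cytoskeleton and adhesion genes gave 35 of 58 clones called below (60.3%) and 3 above (5.2%), against 18.2% and 16.9% of all tested clones. The list median was -1.02. Farthest below were ANKRD1, VIM and KRT8 (-3.26 ± 0.26), a keratin of simple epithelia. CFL1, the actin-severing protein cofilin, was called above at 3.31 ± 0.05, with all 4 arrays between 2.99 and 3.70. KRT19 lay at 1.80 ± 0.66. The 3rd clone above, ACTN1, rested on the Cy3 arrays: it read 2.35 and 2.81 with kidney in Cy3 and 0.43 and -0.92 in Cy5, and with Cy5 alone its value was -0.24. Without centring 19 cytoskeletal clones were called below and 3 above.

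The stroma and matrix list had 21 of 55 clones below (38.2%) and 8 above (14.5%), against 18.2% and 16.9% of all tested clones. TIMP1, FN1 (fibronectin, -3.35 ± 0.12) and 1 of 2 clones of TNC (tenascin C, -2.79 ± 0.01) were farthest below. The second TNC clone lay at 1.10 and was not called. MGP, 1 of 4 LAMA5 clones and COL4A1 (2.28 ± 0.06), the last a chain of basement membrane collagen, were farthest above. LAMA5, a laminin chain, had 3 arrays at 1.91, 1.65 and 4.0 and no ratio on the fourth. The median of this list was -0.35 and turned to 0.21 without centring, and 13 and 11 clones were called below with replicate 1 or K left out.

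Of 56 clones for cytosolic ribosomal proteins, 44 (78.6%) were called below the reference and 1 (1.8%) above, with a median of -1.05. All tested clones had 18.2% below and 16.9% above. RPS20 (-2.50 ± 0.49), RPS21 (-2.13 ± 0.39) and RPL37 (-1.77 ± 0.08) were farthest below. The sizes were modest and the dyes differed, with list medians of -1.50 for kidney in Cy3 and -0.53 for kidney in Cy5. The count moved with the processing, for causes that were not tested: 10 clones were called below without centring, 20 from the Cy5 arrays alone, and 25 and 18 with replicate 1 or K left out. RPS10 was the 1 clone above, at 0.83 ± 0.23.

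Other housekeeping lists were closer to the centre of the array. The proteasome had 15 of 31 clones below and 1 above, with a median of -0.56 that was 0.00 without centring. Its count below was 5 and 3 with replicate 1 or K left out, and without centring it was 1, with 3 above. Translation factors had 16 of 52 below and 3 above, led by PABPC1, which coats poly(A) tails, at -1.76 ± 0.07, and EIF2S2 at -1.72 ± 0.09; the count below was 9 and 6 with replicate 1 or K left out, and without centring it was 4, with 5 above. Splicing factors had 15 of 49 below (30.6%) and 6 above (12.2%), and chaperones 14 of 55 below (25.5%) and 5 above (9.1%). Mitochondrial ribosomal proteins had 10 of 44 below (22.7%) and 4 above (9.1%). Over all tested clones 18.2% were called below and 16.9% above. With replicate 1 or K left out the counts below were 7 and 5 for splicing factors, 11 and 8 for chaperones and 2 and 4 for mitochondrial ribosomal proteins. Without centring the balance turned, to 2 below and 9 above, 6 below and 12 above, and 0 below and 6 above. The medians of translation factors, splicing factors, chaperones and mitochondrial ribosomal proteins, -0.43, -0.19, -0.10 and -0.07, all turned positive without centring. Proton and ion pumps had 1 of 20 clones above and 2 below, and 5 above and 0 below without centring.

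Markers of cells other than tubule epithelium were present on both sides. Of 9 endothelial clones 5 (55.6%) were called above and 1 (11.1%), CAV1, below, with a median of 2.02. All tested clones had 16.9% above and 18.2% below. KDR, the receptor of vascular endothelial growth factor, had 2 clones at 3.30 ± 0.83 and 2.02 ± 0.19, PLVAP, a fenestral diaphragm protein, lay at 3.10 ± 0.34, and PECAM1 at 2.16 ± 0.31 on 1 clone, with its second at 0.77 ± 0.98 not called. CDH5, VE-cadherin, lay at -0.10 ± 0.13. Immune genes had 12 of 35 clones above (34.3%) and 5 below (14.3%), the latter under the 18.2% of all tested clones. Their median of -0.03 was 0.52 without centring. With replicate K left out 7 immune clones were above and 3 below. The 3 complement C1q chains, made by macrophages, were all called above on 5 clones: C1QB at 2.79 and 2.77, C1QA at 2.72 and C1QC at 2.21 and 1.93. Other macrophage genes of the list were not called: CD14 at 1.54 and -0.03, CD68 at 1.21 and CD163 at 0.08. IGHM, the immunoglobulin heavy chain of IgM, lay at -1.88 ± 0.05 on 3 arrays, and CORO1A and LCP1, actin-binding proteins of white cells, at -1.58 ± 0.06 and -1.39 ± 0.02. What part these cells had in the other results was not tested. The blood list, of globins and other red cell genes, had 0 tested clones.

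The placenta list, tested because the reference is of unstated origin, had 11 of 68 clones above (16.2%) and 10 below (14.7%) and a median of 0.07, at or under the 16.9% and 18.2% of all tested clones. With replicate 1 left out 7 were above. Single members lay far out on either side: LGALS3, KRT8 and HSD3B1 (-3.01 ± 0.03), an enzyme of steroid synthesis, were farthest below. FOLR1, a folate receptor, GATA2 (2.48 ± 0.03) and the imprinted transcript H19 (2.25 ± 0.07) were farthest above; folate receptor is also a gene of the proximal tubule. FOLR1 read 3.77, 1.26, 4.30 and 4.04, with replicate 1 in Cy5 again under the rest, and a mean of 3.34 ± 1.17 with that array and 3.97 without it. Pregnancy-associated glycoproteins, which trophoblast makes in ruminants, had 10 clones with 0 called and a median of 0.04. Among genes of other tissues, MBP (3.10 ± 0.11 on 1 of 3 clones) and TF, transferrin (1.64 ± 0.06), were called above and TCAM1 below. Early response and stress genes had 11 of 62 clones above (17.7%) and 15 below (24.2%), against 16.9% and 18.2% of all tested clones. The count below was 6 and 8 with replicate 1 or K left out, and without centring 15 were above and 4 below. Called members included TXNIP (2.49 ± 0.23) above, 4 clones of the MAP kinase phosphatase DUSP6 above at 1.11 to 1.99, and JUNB (-3.13 ± 0.18 on 1 of 2 clones), KLF4 (-1.93 ± 0.30) and ATF3 (-1.56 ± 0.02 on 1 of 3 clones) below.

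Some single calls named above needed both RNAs. Those of ACTN1, NCAPD2, RPS10, MDH2 and PDHA1 (the clones at 0.82 and 1.09 for the last pair) were lost with either RNA left out. Those of KRT19, LAMA5, MEIS2, SDHA and NDUFA4L2 were lost with replicate K left out. Without centring the calls of PGK1, TXN, NDUFA4L2, LCP1 (-1.39) and ITGA3 were lost.

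**Figure D2:**
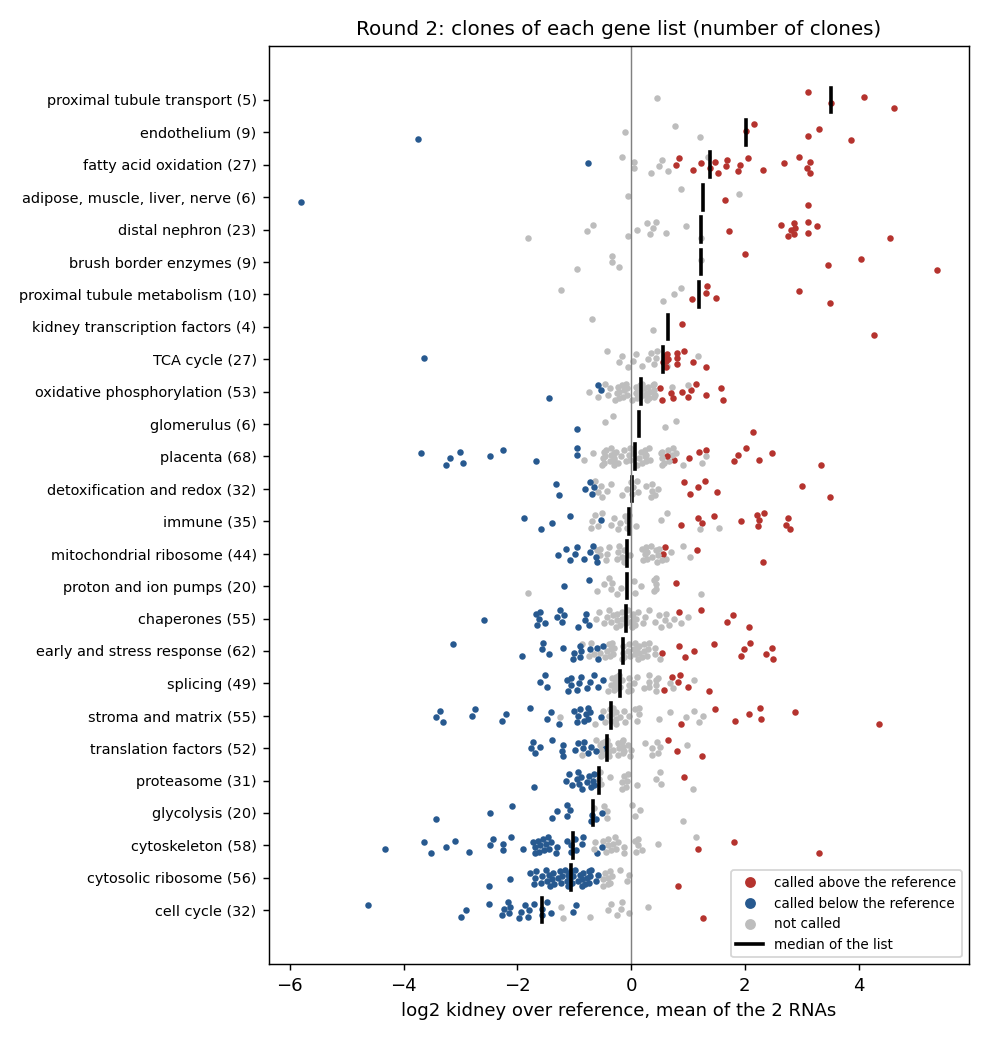
Log2 kidney over reference at round 2 (x axis, mean of the 2 RNAs) for the tested clones of each gene list (rows, number of clones in brackets). Red clones were called above the reference, blue below and grey not called, and black bars are list medians, which run from 3.52 for proximal tubule transport to -1.57 for the cell cycle.

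The 2 RNAs and the 2 dye orientations gave different pictures of precision. Across 5537 clones the 2 RNAs correlated at 0.75 (Pearson r, clones not being independent replicates). Their median absolute difference was 0.33, and 666 clones differed by more than 1. Arrays of different RNAs with kidney in the same dye correlated at 0.836 for Cy3 and 0.604 for Cy5. The 2 arrays of 1 RNA with dyes swapped correlated at 0.447 for replicate 1 and 0.573 for replicate K. Thus 2 RNAs in 1 dye resembled each other more than 1 RNA in 2 dyes did. Of 5225 clones measured on all 4 arrays, 2616 lay on 1 side of the reference on each. Among the 1889 called clones measured on all 4 arrays, 1778 did.

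Dye orientation moved some clones across the reference. In 716 clones each orientation kept to its own side in both RNAs, 379 of them above with kidney in Cy3 and 337 above with kidney in Cy5; 11 of the 716 were called. In 126 clones the orientations differed by more than 2 in the same direction in both RNAs, and in all 126 the ratio was higher with kidney in Cy3. The condensin subunit NCAPH2 read 3.41 and 3.02 with kidney in Cy3 and -3.47 and -2.85 in Cy5, a mean of 0.03. RASSF6 and 1 of 2 clones of the phosphatase PTPRM showed the same form, with means of -0.70 and 0.33 that were not called. Of the 126 clones 21 were called, among them the kinase TAOK3, which read 1.01 and 1.14 with kidney in Cy3 and -4.14 and -2.06 in Cy5, a mean of -1.01 (adjusted p = 0.0452). The same 126 clones, which were chosen on round 2, were followed on the other arrays. There the ratio was higher with kidney in Cy3 in both RNAs for 79 of 96 clones measured on all 4 arrays at round 1 and 73 of 89 at round 3, with median differences of -2.30 and -2.47 (Cy5 minus Cy3 orientation). At round 0 it was so for 44 of 101, with a median difference of -0.18.

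**Figure D3:**
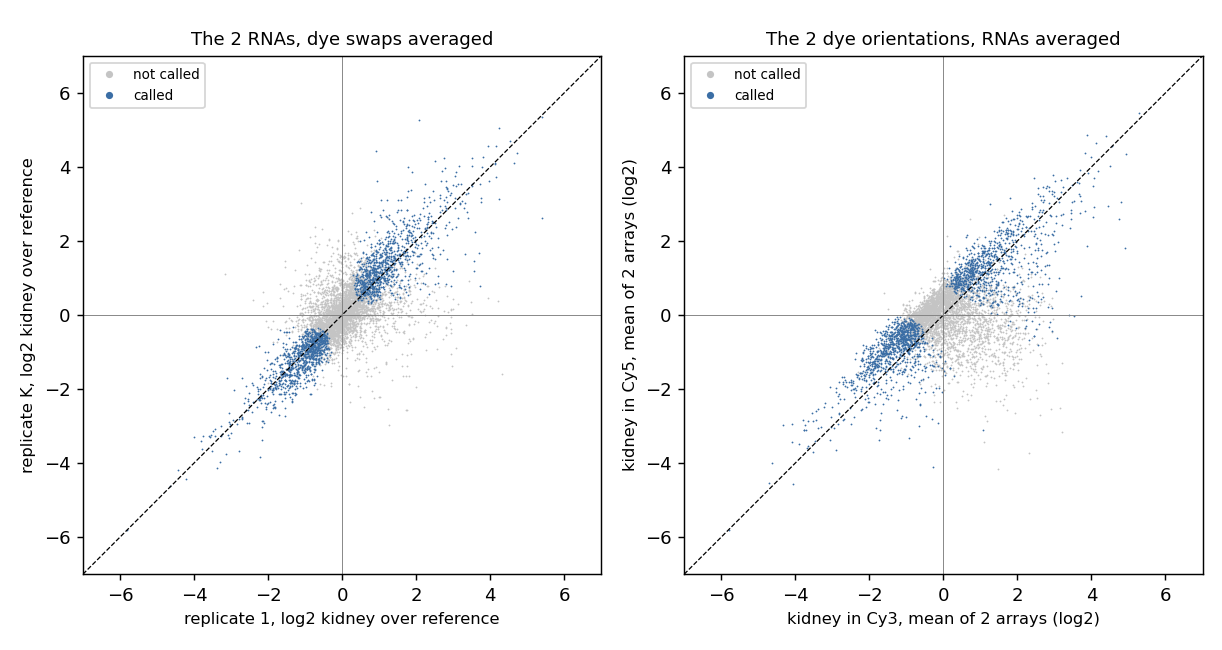
Left, log2 kidney over reference of replicate 1 (x axis) against replicate K (y axis) for the tested clones at round 2. Right, the mean of the 2 arrays with kidney in Cy3 (x axis) against that with kidney in Cy5 (y axis) for clones measured on all 4 arrays, with called clones in blue and the line of equality dashed; the clones that spread to the lower right are higher with kidney in Cy3, as NCAPH2 is.

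Different clones of 1 gene gave a further check. Of 905 genes with more than 1 tested clone, 486 had at least 1 clone called; in 74 every clone was called above and in 69 every clone below. In 332 genes some clones were called and others not, and in 19 genes clones were called on both sides. The median range between the clones of a gene was 0.53, and it was over 2 in 70 genes. GATA2 had clones at 2.48, 0.55, 0.54 and -1.68, of which the first was called above and the last below. TGFBR2, a receptor of transforming growth factor beta, had clones at 1.95 and -1.28, both called. IGFBP3, which binds insulin-like growth factors, had clones at 2.19, 0.61 and -2.21, all called.

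**Figure D4:**
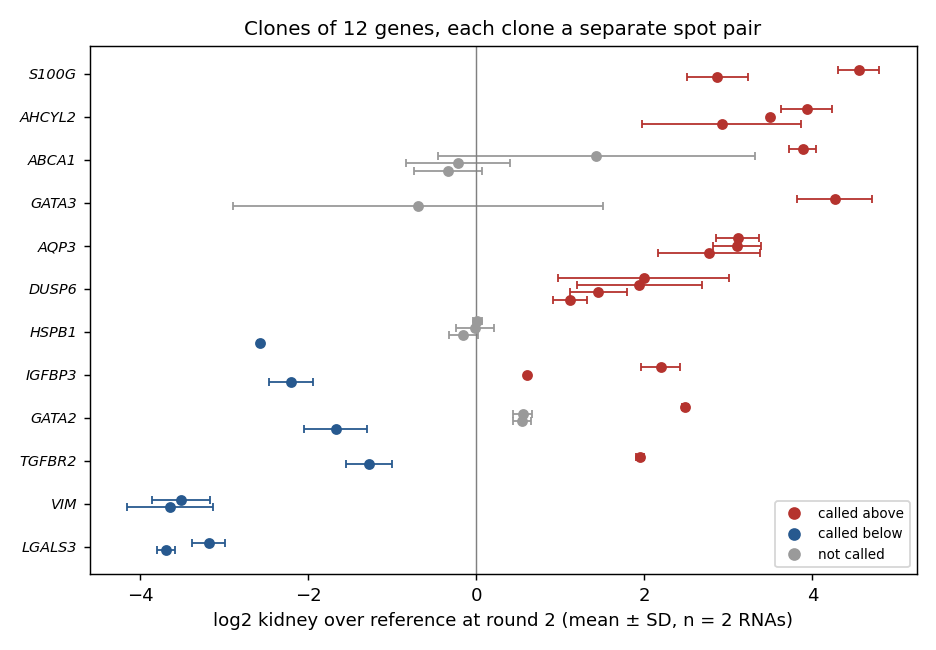
Log2 kidney over reference at round 2 (x axis, mean ± SD, n = 2 RNAs) for each tested clone of 12 genes with more than 1 clone, red where called above, blue where called below and grey where not called. The clones of AQP3, DUSP6, VIM and LGALS3 lie together, while those of IGFBP3, GATA2 and TGFBR2 lie on both sides of 0.

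The round 2 ratios were then set against those of the other rounds, which share the reference RNA. Against round 0, 606 of 5537 clones (10.9%) were called, 249 higher at round 2 (4.50%) and 357 lower (6.45%). Against round 1 and against round 3, 0 clones were called by limma. At an unadjusted p under 0.05 there were 562 against round 1 and 403 against round 3, and a fit of all 16 arrays with a dye term called 8 and 1. The count against round 0 was unstable: it was 23 with the round 2 replicate 1 RNA left out, 44 without replicate K, 180 and 106 without the round 0 RNAs, 370 without either round 3 RNA, and 67 without centring. Every deposited round 0 value is written to 3 decimals, against 83.2% to 88.2% of the values of the other arrays, so that a difference in the deposited processing and the lack of amplification cannot be told apart.

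Among clones also called at round 2, the largest rise from round 0 was in CFL1. It read -1.52 ± 0.05 at round 0 and 3.69 ± 0.02, 3.31 ± 0.05 and 3.20 ± 0.25 at rounds 1, 2 and 3, a difference between rounds 2 and 0 of 4.83 (SE 0.21, adjusted p = 0.001). ECI2, an isomerase of fatty acid oxidation, went from -2.11 ± 0.14 at round 0 to 1.53 ± 0.31 at round 2 on this clone, with 1.48 and 1.41 at rounds 1 and 3. Its second clone lay above the reference at each round, at 1.72, 1.77, 2.69 and 3.24. IRF2BP2, a transcriptional corepressor, was higher at round 2 on 1 clone, from -0.53 to 2.88 ± 0.92, or 3.42 at round 2 without the replicate 1 Cy5 array. TRIB3 and SEMA4B, called 3.84 and 3.72 higher, had gaps: TRIB3 had no ratio on the replicate 1 Cy5 array, and the SEMA4B clone none on either Cy5 array, so its value of 2.24 rests on kidney in Cy3 alone. At rounds 1 and 3 these 2 clones lay near the reference, at 0.09 and 0.05 for TRIB3 and -0.16 and 0.07 for SEMA4B.

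Among the same clones the largest fall was in IGFBP3, on the clone that lay at -2.21 at round 2. This clone read 1.53 ± 0.26 at round 0 and -2.21 ± 0.80 and -2.11 ± 0.24 at rounds 1 and 3, a difference of -3.74 between rounds 2 and 0 (SE 0.40, adjusted p = 0.00956). The other IGFBP3 clones lay above the reference at each round, at 3.39, 2.40, 2.19 and 1.76, and at 1.16, 0.33, 0.61 and 0.74. HSPB1, a small heat shock protein, fell from 0.89 ± 0.55 to -2.58 ± 0.02 on 1 clone, while its other 3 clones lay between -0.16 and 0.01 at round 2. SMTN, smoothelin of smooth muscle, went from 1.30 ± 0.01 to -1.85 ± 0.05, and GPX3 from 6.62 ± 0.45 to 3.50 ± 1.05. THAP4 was called 3.54 lower, from 2 arrays with kidney in Cy5 alone (-3.12 and -1.70). The calls at round 2 itself of TRIB3, SEMA4B and THAP4 were lost with replicate 1 left out, and those of SEMA4B and IRF2BP2 with replicate K left out. Of these genes CFL1, ECI2, IGFBP3, HSPB1 and SMTN had round 1, 2 and 3 means that differed by 0.60 at most, and GPX3 read 4.48, 3.50 and 1.58 at those rounds.

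**Figure D5:**
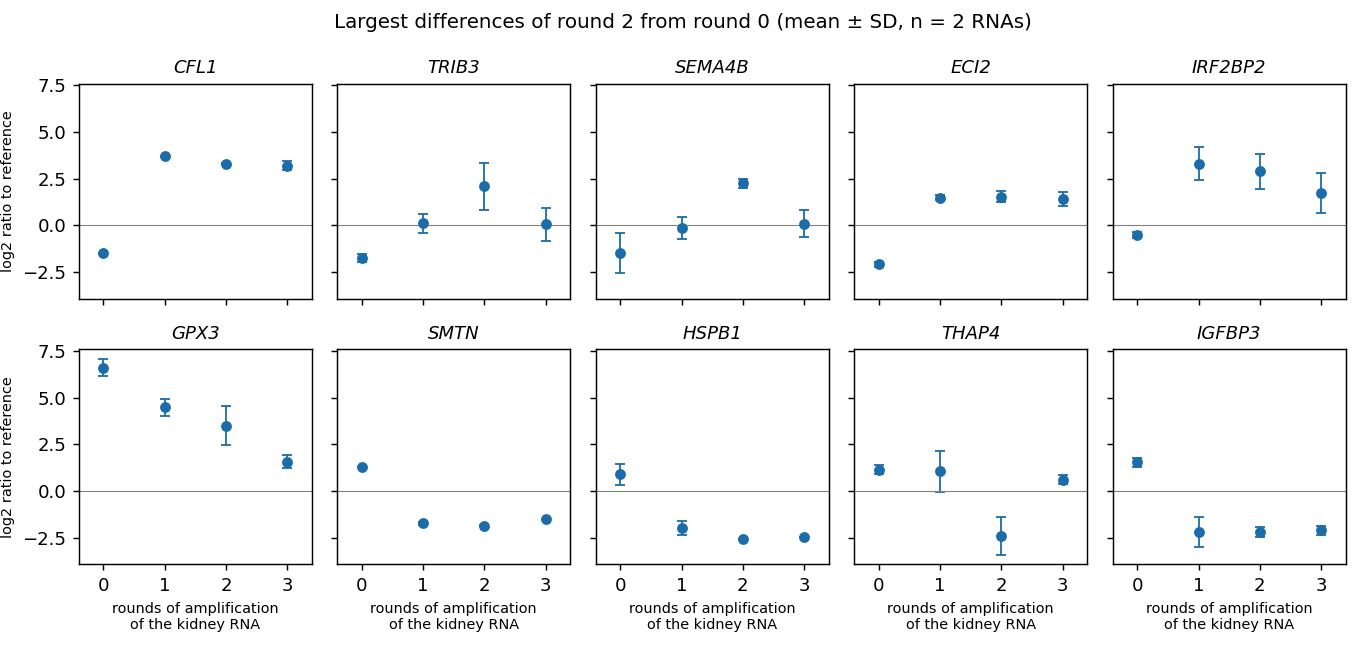
Log2 kidney over reference (y axis, mean ± SD, n = 2 RNAs) at 0, 1, 2 and 3 rounds of amplification of the kidney RNA (x axis) for the genes with the 5 largest rises and the 5 largest falls from round 0 among clones also called at round 2. Each gene is shown by 1 clone, and other clones of ECI2, HSPB1 and IGFBP3 read otherwise. The clones shown for CFL1, ECI2, IRF2BP2, SMTN, HSPB1 and IGFBP3 lie on 1 side of 0 at round 0 and on the other at rounds 1, 2 and 3. That of TRIB3 does so too, but at only 0.09 and 0.05 at rounds 1 and 3.

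Of the 606 clones called against round 0, 260 were not called at round 2 itself. An H19 clone lay at 4.62 ± 0.02 at round 0 and at 0.16, 0.25 and 0.11 at rounds 1, 2 and 3, while the second H19 clone read 3.93 and 2.25 at rounds 0 and 2. PGLS, which acts in the pentose phosphate shunt, went from 5.44 to 0.54, 0.49 and 0.61, and GALT, an enzyme of galactose metabolism, from -3.91 to -0.36, 0.16 and 0.15. GIPC2 of the proximal transport list read 3.76, 1.78, 0.46 and -0.40 at the 4 rounds, and the endothelial CDH5 1.69, -0.07, -0.10 and -0.01. The first H19 clone, PGLS, GALT and CDH5 were thus far from the reference at round 0 and within 0.61 of it at each amplified round. The second H19 clone stayed above it, at 2.56 and 1.97 at rounds 1 and 3.

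Calls were then compared between clones of a gene. Against round 0, where 10.9% of all tested clones were called, of 595 called clones with 1 gene symbol, 207 had another tested clone of the same gene; in 16 cases another clone was called in the same direction only, in 16 another was called in the opposite direction, and in 175 no other was called. For round 2 kidney over reference, where 35.0% of all tested clones were called, of 696 called clones with another tested clone, 359 had another called on the same side only, 297 had none called and 40 had another on the opposite side.

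Of the 24 genes farthest from the reference at round 2, 20 did not pass the test of round 2 minus round 0 and 4 (16.7%) did, against 10.9% of all tested clones. Close values at both were seen in ENPEP (5.57 at round 0, 5.37 at round 2), AQP1 (4.43 and 4.61), TEK (3.81 and 3.87), PCLAF (-4.56 and -4.63), ANKRD1 (-4.22 and -4.32) and VIM (-3.93 and -3.65). ABCA1 (5.85 and 3.89) and TIMP1 (-4.80 and -3.44) were farther apart without passing. The 4 that passed were SLC7A7, 1.26 higher at round 2, and MGP, BCAT1 and NT5E, which were 1.35, 2.29 and 2.23 lower. BCAT1 lay at -2.02 at round 0 and NT5E at -1.38, so that both were farther below the reference after amplification of the kidney RNA. Their values at rounds 1 and 3 were -3.48 and -3.72 for BCAT1 and -3.26 and -3.35 for NT5E.

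Between round 2 and the neighbouring rounds the smallest p-values belonged to genes that did not pass the adjusted test. ZDHHC20, a palmitoyltransferase, lay at 1.81 at round 1 and -0.29 at round 2 (adjusted p = 0.157 in limma's test). PNRC2, a nuclear receptor coactivator, lay at 3.82 and 0.65, and MCL1, an inhibitor of apoptosis, at 0.77 and -0.72. Against round 3 they were RHOB, a small GTPase, at 1.40 at round 2 and -0.38 at round 3, LOC515150 at -0.85 and 2.76, and ZMYND8, a chromatin reader, at 1.57 and -0.49 (adjusted p = 0.314 for each). RHOB lay at 2.88 at round 1, above its values at rounds 2 and 3.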

How the data were processed

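RNA was isolated with Trizol, amplified linearly, reverse transcribed with amino-allyl dUTP and coupled to Cy3 or Cy5, per the labels' protocols. The deposited values are log2 ratios of the 2 channels for 15 arrays. The deposited values of the Cy3 array of replicate 1 at round 1 are called a score, because some lie outside the range of a log2 ratio; the others entered as log2 ratios. For scanner, background correction and normalization, the sources used here give nothing. No intensities were used: the depth of an array is given by how many spots have a ratio, and precision is limited by the number of arrays.

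Values beyond 10 in size were set missing, and arrays with kidney in Cy3 were turned. The median of the spots with a listed gene was subtracted within each array. Duplicates, 8448 rows apart, and then dye swaps were averaged. GEO's platform annotation names a gene for 5693 of 8448 features, 5598 with 1 symbol, 95 with several and 2755 without; all 5591 gene identifiers found in a RefSeq list of cattle genes had the same symbol. Gene names are those of the platform. The 5537 listed features (4432 genes) with a value in both RNAs of each round were tested with limma 3.58.1 (R 4.3.3, and its package data.table, version 1.17.8): lmFit and eBayes, a mean per round over 8 RNAs, 4 residual and 2.4 prior degrees of freedom, Benjamini-Hochberg adjustment, threshold 0.05. The reference is 1 RNA whose own spread is left out. An exact test of 2 RNAs against 2 could not reach 0.05. The scripts were tested on simulated data. Figures used matplotlib 3.10.9 in Python 3.11.15.

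Named genes were the 12 farthest above and below with all 4 arrays on 1 side, the 3 called features farthest from 0 on each side of each list, and the 5 largest called differences each way between rounds among features also called at round 2, or the 3 smallest p-values where fewer than 5 passed. Others, such as further list members and clones, were chosen after their values were seen. Members and lists were chosen with earlier results of these data known. Replicate numbers were not taken to pair samples: deviations of the same number correlated above 0.1 in 1 of 6 pairs of rounds. Centring, scaling, filters, duplicates, dyes and samples were varied. Sequences, promoters and genome positions were not used here.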

Additional observations from a re-analysis of the deposited data

Results flagged for a closer look

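Among the 132 clones named by the rule in the processing section, 4 had 1 of their 4 round 2 arrays far from the other 3. Chance alone would flag about 1 in 20 groups of 4 interchangeable arrays. These 4 arrays differ by RNA and dye, and the clones were picked by their values. That rate is therefore no measure for the 4 of 132. ANPEP read 4.29 on the replicate 1 Cy3 array, PDZK1IP1 5.21 and IRF2BP2 1.17 on the replicate 1 Cy5 array, and EIF2B4 1.5 on the replicate K Cy5 array. The mean of each was called.

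Of the same 132 clones, 33 passed limma's test of round 2 minus round 0, IRF2BP2 among them. Over all tested clones 10.9% were called in that test. For the 5 largest called differences each way, which the rule took from this same test, passing was fixed in advance. Those higher at round 2 were CFL1 (4.83), TRIB3 (3.84), SEMA4B (3.72), ECI2 (3.64), IRF2BP2 (3.42), PLVAP (2.86), FOLR1 (2.76), MRPS34 (1.95), RPS10 (1.90), PDHA1 (1.74), PRPF31 (1.74), PSMD8 (1.58), SLC7A7 (1.26), DNAJC11 (1.16) and MBP (1.09). Those lower were IGFBP3 (-3.74), THAP4 (-3.54), HSPB1 (-3.47), SMTN (-3.15), GPX3 (-3.12), BCAT1 (-2.29), NT5E (-2.23), NDUFA4L2 (-1.86), SLC2A3 (-1.75), H19 (-1.67), SRSF1 (-1.67), HNRNPU (-1.62), TNC (-1.55), MGP (-1.35), EIF2S2 (-1.19), MRPL18 (-1.15), MCL1 (-1.10) and KLF4 (-1.01). The splicing factors SRSF1 and HNRNPU lay at 0.07 and 0.10 at round 0 and at -1.60 and -1.52 at round 2. PLVAP, the endothelial marker, lay at 0.24 at round 0 and 3.10 at round 2. Since all round 0 arrays share a format of their own, their processing and the missing amplification cannot be told apart here.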

How the results depend on the processing

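The 24 genes farthest from the reference stayed called under all 23 settings (22 of them measured with kidney in Cy3 alone), with adjusted p-values up to 0.0164; since they were chosen for large means and 4 arrays on 1 side, this and their direction were largely fixed by the choice. The count of 1940 was 1280 when only round 2 RNAs were fitted and 865 to 1953 with 1 RNA left out. The 606 calls of round 2 minus round 0 became 67 without centring, 338 without the round 1, replicate 1, Cy3 array, 269 and 387 from the first or second spot alone, 138 from the RNAs of these rounds alone, 1042 with a dye term, 254 with kidney in Cy5 alone, and 23 to 497 with 1 RNA left out. Round 2 minus round 1 had 8 calls with a dye term and 0 to 3 with 1 RNA left out; round 2 minus round 3 had 1 with a dye term. The cause of these shifts was not tested, apart from the fewer samples or arrays of some settings. Without the round 2, replicate 1, Cy5 array, chosen after seeing the data, 2095 and 658 clones were called at round 2 and against round 0, with 17 fatty acid oxidation clones and 11 distal nephron clones above, and 22 cell cycle, 11 glycolysis, 33 cytoskeleton and 45 ribosomal clones below. NDUFS4 reversed to 0.031 without centring and ACTN1 to -0.24 with kidney in Cy5 alone. ZDHHC20 reversed to 0.27 without centring, 0.033 from the first spot, 0.14 with kidney in Cy3 alone and 0.20 without the replicate 1 Cy5 array. With a replicate block the counts were 1923 at round 2, 507 against round 0 and 0 against rounds 1 and 3. Spots without a ratio, 5.0% to 14.7% of an array at round 2, and the lack of intensities limit what dim clones can show.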

Other observations

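Gene families grouped by their symbol, none of them a list used above, showed further patterns at round 2. Annexins, calcium-dependent membrane-binding proteins, had 7 of 12 clones called below the reference and 0 above, with a median of -1.57: ANXA2 lay at -3.09 ± 0.14, ANXA1 at -2.85 and -1.54, ANXA5 at -1.90 and -1.60, and ANXA8L1 at -3.16 and -2.22 with its remaining clone at 0.56 not called. ANXA4, ANXA6 and ANXA11 were not called. Tetraspanins with a TSPAN symbol had 5 of 12 clones above and 2 below. TSPAN1 lay at 3.14 ± 0.43, both TSPAN33 clones at 1.68 and 1.57, and both TSPAN13 clones below at -1.69 and -1.71. That count leaves out tetraspanins with other symbols. Among these, CD9 had clones at -1.04, -1.59 and -1.88, all called below, while CD63 (-0.08) and CD81 (0.48) were not called. Unconventional myosins had 4 of 10 clones above and 0 below, with MYO5B, which drives apical recycling in epithelia, at 1.46 ± 0.18 and MYO6, a motor of endocytosis, at 1.06 ± 0.07 on 1 clone and -0.87 ± 0.42, not called, on the other. These families were picked after their values were seen, and over all tested clones 16.9% were called above and 18.2% below.

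Features with no listed gene were left out of the tests above. Of 2470 such features with a value in both RNAs of each round, 584 (23.6%) were called at round 2, 316 above and 268 below. They were fitted and adjusted together with the listed features, 8007 in all, of which 2379 were called. The 35.0% given above for features with a listed gene comes from a fit of those alone, so the 2 shares rest on unlike adjustments.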
